A study of Glycine max with 12 samples.

Results

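The Gm20/Gm10 double mutant and the Gm20 single mutant of soybean (Glycine max) were compared in their libraries labelled V5, with 2 RNA-seq libraries of each, so that 4 of the 12 libraries in the series form the comparison. They were chosen by the genotype, stage and replicate in their titles. The study edited the gene behind a major seed protein locus and its paralog. Gm20 and Gm10 in the genotype labels are read here, from background knowledge, as the locus gene on chromosome 20 and its paralog on chromosome 10, so both mutants carry the chromosome 20 edit and the double mutant alone also carries the chromosome 10 edit. The wild type is the cultivar Thorne. The 2 wild-type V5 libraries entered the fits as a source of spread and were used to place the mutants' levels, and the 4 R5 libraries of the mutants were used to ask whether a difference was also seen at that stage. All plants were grown in a field, and each library was made from seed collected from 3 to 5 plants. The labels speak of transgenic events, and do not give the parent cultivar of the mutants, the number of independent events sampled or the sequence of the edits.

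Seed protein content in soybean depends strongly on the locus of chromosome 20, whose gene belongs to a family of plant regulators with a CCT domain, a short stretch of protein that many flowering time and clock regulators carry. Soybean descends from an ancient polyploid, and most of its genes have a close copy on another chromosome. Editing a gene together with its copy is a common way to ask whether the copy does the same work. A frameshift edit changes the protein and can also lower the RNA, because transcripts with an early stop codon are often degraded.

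In soybean staging V5 is vegetative growth, ahead of flowers and pods, yet seed is the tissue named for all libraries. The deposited tables hold gene IDs without names, and of the 56044 IDs 0 were found among the 59048 genes of the reference table, so neither the tissue nor the stage could be checked against marker genes. Genes are therefore given by ID, with the chromosome that the ID names, and few IDs are printed. The 4 mutant libraries held 20728434 and 20877795 counts in the double mutant and 20788114 and 21066989 counts in the single mutant. Levels are CPM, a gene's count scaled to the total count of its library. Log2 fold changes are double mutant minus single mutant after TMM scaling, which sets aside differences in the share of RNA taken by a few abundant genes, and each has its standard error (SE) in parentheses.

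The 2 single mutant libraries differed widely from each other, and the main comparisons are therefore also given for each of them alone. Over 15057 genes with a mean of 10 TMM-scaled CPM or more, the standard deviation (SD) of the log2 ratio was 1.54 between single mutant replicates 1 and 2, and 0.21 between double mutant replicates 1 and 2. It was 0.265 and 0.291 between single mutant replicate 1 and the 2 double mutant libraries, and 1.55 between single mutant replicate 2 and either of them. Single mutant replicate 1 was thus close to the double mutant, and single mutant replicate 2 stood apart from all 5 other V5 libraries. Its log2 ratios to the wild-type libraries had an SD of 1.51 and 1.53. Whether replicates are separate field plots or plant pools is not labelled. The p-values therefore measure the spread between these libraries, which may be technical.

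**Figure D1:**
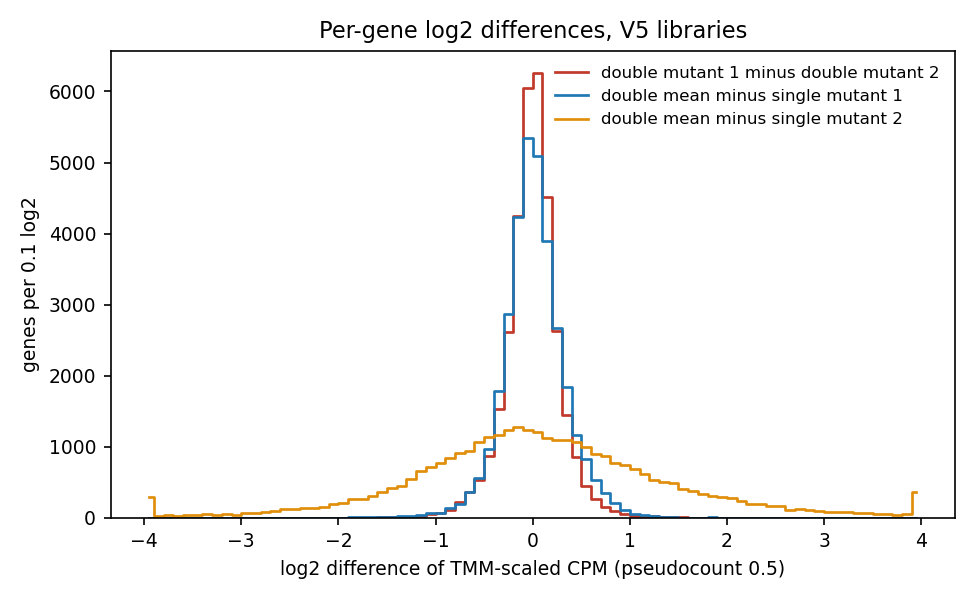
Number of genes (y axis, per 0.1 log2) by log2 difference of TMM-scaled CPM with a pseudocount of 0.5 (x axis), for 33599 genes, between the 2 double mutant libraries (red) and between the mean of the double mutant and single mutant replicate 1 (blue) or replicate 2 (orange). Values beyond 4 on either side are gathered in the end bins, and the orange curve (SD 1.42) is far wider than the blue (SD 0.326) and the red (SD 0.287).

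The gene whose edit sets the mutants apart was read first. The chromosome 10 paralog, Glyma.10G134400, had 25 and 19 counts in the double mutant, 67 and 34 in the single mutant and 41 and 28 in wild type. In CPM the double mutant was at 1.21 and 0.91, the single mutant at 3.22 and 1.61 and wild type at 2.01 and 1.36. In CPM both double mutant libraries were below both single mutant and both wild-type libraries. TMM scaling, with a factor of 1.342 for single mutant replicate 2 and 1.039 for double mutant replicate 1, narrowed the gap between those libraries. The order of the mutants held after it, as for 18.1% of all genes tested. The log2 fold change was -1.16 (SE 0.59) over both single mutant libraries, -1.72 (SE 0.35) against replicate 1 alone and -0.21 (SE 0.41) against replicate 2 alone, with edgeR adjusted p of 0.669, 0.371 and 0.672. None of the 3 passed the threshold of 0.05. In these bulk samples, fewer cells that express a gene and less RNA per cell cannot be told apart. Against replicate 1, 156 of 34215 genes (0.456%) had a log2 fold change as negative or more so, the edited gene among them, and 10 of them were among the 1838 tested genes of chromosome 10.

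The chromosome 20 gene, Glyma.20G085100, which is edited in both mutants, had 31 and 21 counts in the double mutant, 31 and 10 in the single mutant and 16 and 17 in wild type. The mutants overlapped, since single mutant replicate 1 was as high as double mutant replicate 1. Its log2 fold change was 0.35 (SE 0.75) over both single mutant libraries, with an edgeR adjusted p of 0.836, and it was -0.37 (SE 0.44) against replicate 1 alone and 1.78 (SE 0.55) against replicate 2 alone, with edgeR adjusted p of 0.839 and 0.027. The direction therefore depended on which single mutant library was used. A coding edit can leave the RNA level as it was, so these counts do not check the genotype labels, and reads of the close copies may have been shared or dropped in the counting. The gene IDs of the edited pair come from background knowledge of the locus, not from the labels.

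The genes beside the edited paralog were then examined, in the order of their IDs along chromosome 10. Of the 40 tested genes nearest to it, 20 on each side, 4 had an unadjusted edgeR p under 0.05 against single mutant replicate 1 (10%), where the share over all genes tested was 9.14%. Their log2 fold changes ran from -0.97 to 2.42 around a median of 0, and 3 of the 40 differed by more than 2-fold. That held for 4.62% of the tested genes of chromosome 10, and for 4.04% to 5.93% over the chromosomes. The edited gene, at -1.72, was lower than each of the 40. Its neighbours on one side, Glyma.10G134100 and Glyma.10G134200, had log2 fold changes of 0.28 (SE 0.16) and -0.21 (SE 0.29), and those on the other side, Glyma.10G134600 and Glyma.10G134700, had 0.12 (SE 0.27) and 1.08 (SE 0.71), with edgeR adjusted p of 0.654 to 0.923. Against replicate 2 alone, 25 of the 40 passed the test (62.5%), beside 61.8% of all genes.

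**Figure D2:**
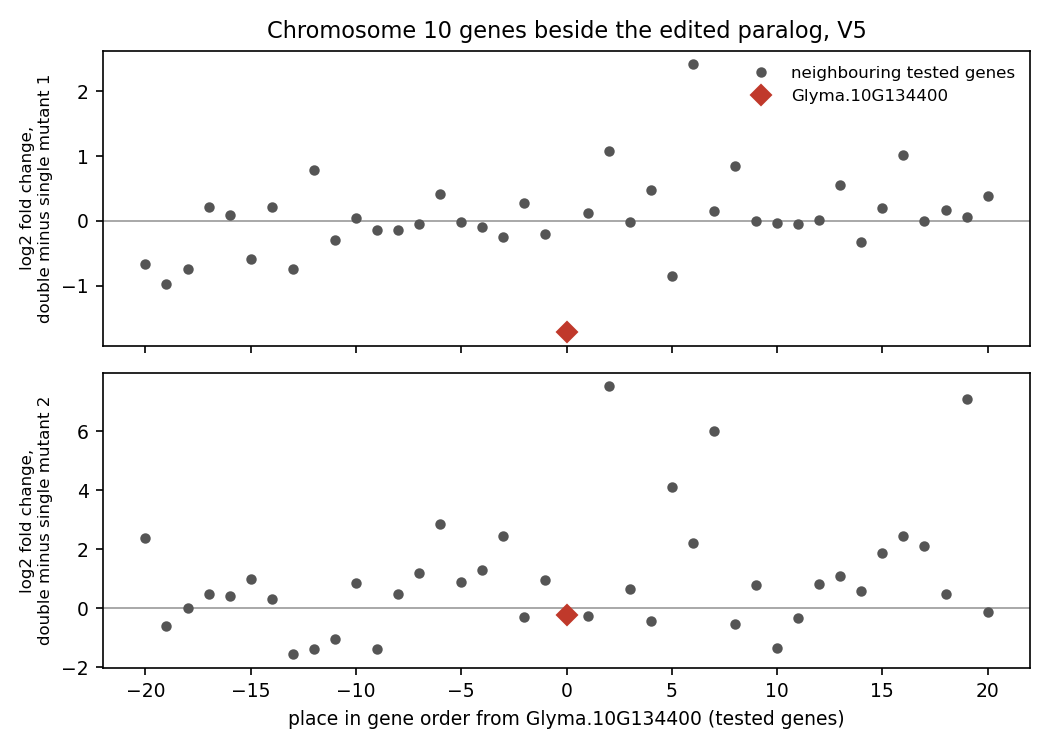
Log2 fold change of the double mutant against single mutant replicate 1 (upper panel) and replicate 2 (lower panel, wider axis) for Glyma.10G134400 (red diamond) and the 20 tested genes on each side (grey), placed by gene order. In the upper panel the edited gene is lowest, at -1.72, and in the lower panel it is at -0.21, inside the range of its neighbours.

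With both single mutant libraries as 1 group, no gene passed the test between the mutants. EdgeR called 0 of 33599 genes (0%), and 1351 (4.02%) had an unadjusted p under 0.05, 412 (1.23%) higher and 939 (2.79%) lower in the double mutant. Limma with quality weights called 0 genes, and DESeq2 called 176 (0.539% of those it tested), 3 (0.00918%) higher and 173 (0.529%) lower. Without single mutant replicate 1 edgeR called 22196 genes, and without replicate 2 it called 0. The spread between replicates, as edgeR's common coefficient of variation, was 43.7% with all 6 V5 libraries. It was 13% without either of the single mutant libraries. A lone single mutant library adds nothing to this estimate, so the 13% came from the wild-type and double mutant pairs in both cases.

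Some genes separated all 4 mutant libraries by a wide margin. The 4 genes of this and the next paragraph were picked for no overlap and the smallest unadjusted edgeR p in each direction. Their separation and their like direction against each replicate therefore follow from that choice. On chromosome 9, the neighbours Glyma.09G055000 and Glyma.09G055100 were both lower in the double mutant. Glyma.09G055100 had 9 and 11 counts in the double mutant, 134 and 239 in the single mutant and 28 and 31 in wild type, so that wild type lay between the mutants. Glyma.09G055000 had 17 and 18 counts in the double mutant, 111 and 223 in the single mutant and 21 and 24 in wild type. For this gene wild type was nearer to the double mutant than to the single mutant. Their log2 fold changes were -4.03 (SE 0.38) and -3.06 (SE 0.38), with an edgeR adjusted p of 0.669 for each and DESeq2 adjusted p of 7.13e-08 and 0.000371. Against replicate 1 alone they were -3.84 (SE 0.33) and -2.77 (SE 0.32), with edgeR adjusted p of 0.112 and 0.323. Against replicate 2 alone they were -4.15 (SE 0.31) and -3.25 (SE 0.29), with edgeR adjusted p of 6.42e-05 and 0.000127. Both genes had 0 or 1 count in each R5 library. Adjacent copies of a gene can share reads, and whether these 2 do is not known here.

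In the other direction, Glyma.04G024400 had 247 and 305 counts in the double mutant, 56 and 42 in the single mutant and 272 and 328 in wild type. In CPM the double mutant, at 11.9 and 14.6, overlapped wild type, at 13.3 and 16, and the single mutant was below both. TMM scaling raises wild type (factors 0.908 and 0.778) relative to the double mutant (1.039 and 1.053). Its log2 fold change was 2.57 (SE 0.4) over both libraries, 2.18 (SE 0.29) against replicate 1 and 3.12 (SE 0.31) against replicate 2, with edgeR adjusted p of 0.669, 0.323 and 0.000182. DESeq2 called it over both libraries and against replicate 1, with adjusted p of 0.00105 and 0.000112. Glyma.07G014500 had 156 and 86 counts in the double mutant, 12 and 14 in the single mutant and 194 and 304 in wild type. Here too the single mutant was the lowest, and the log2 fold changes of 3.2 (SE 0.68) against replicate 1 and 3.51 (SE 0.66) against replicate 2 were of like size, with edgeR adjusted p of 0.371 and 0.00329. Over both libraries it was 3.34 (SE 0.51), with an adjusted p of 0.669 by edgeR and 0.000928 by DESeq2. This gene had 291228 to 1005113 counts in the 4 mutant libraries labelled R5, far above its V5 counts. Whether its V5 counts are trace counts from libraries with such levels was not tested.

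**Figure D3:**
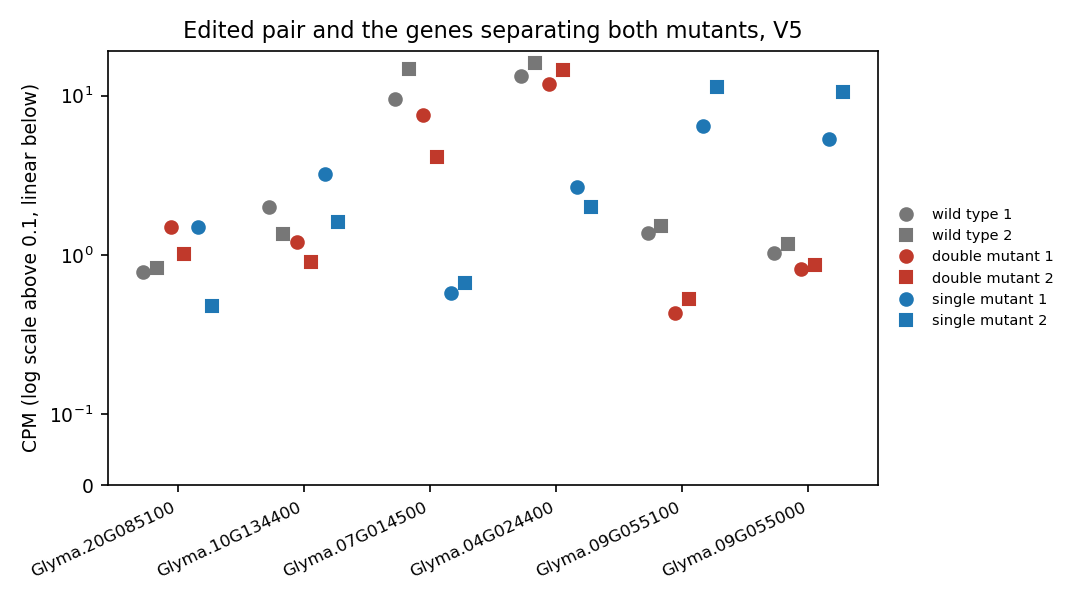
CPM (y axis, log scale above 0.1 and linear below) in each V5 library (grey wild type, red double mutant, blue single mutant; circles replicate 1, squares replicate 2) for the edited pair and 4 genes that separate the mutants. Glyma.10G134400 is lowest in the double mutant (0.91 and 1.21 CPM). The 4 genes on the right were picked so that both single mutant libraries lie on the same side of the double mutant.

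Over all genes tested, both double mutant libraries were above both single mutant libraries for 6558 genes (19.5%) and below them for 6098 (18.1%). In plain CPM without TMM scaling the counts were 7219 and 4478. The median log2 difference over all genes was then 0.11 against replicate 1 and -0.35 against replicate 2, where TMM scaling put both at 0. With 2 libraries of each mutant, many genes fall in such an order without a difference between the mutants. These shares are therefore not counts of changed genes, and few of the gaps were wide. The lowest library of one mutant was more than 2-fold above the highest of the other, in TMM-scaled CPM with a pseudocount of 0.5, for 50 genes (0.149%) higher and 40 genes (0.119%) lower in the double mutant. With a pseudocount of 1 these were 23 and 21 genes. The genes were low, with a median level of 2.75 TMM-scaled CPM for those higher and 5.93 for those lower in the double mutant.

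Wild type lay on different sides in these wide gaps. Of the 50 genes higher in the double mutant, both wild-type libraries were below the double mutant without both being above the single mutant for 28 genes, and the reverse held for 10. For 11 both wild-type libraries lay between the mutants. Of the 40 genes lower in the double mutant, wild type was with the double mutant for 14 genes, with the single mutant for 11 and between them for 15. Glyma.09G055000 and Glyma.09G055100 were the one pair of consecutive IDs among the 40, and there was none among the 50 (0 genes). Of the 29 lower genes with 10 or more counts in the R5 mutant libraries, 8 were also lower in both double mutant libraries at R5, where 10.7% of all such genes were, and 1 was higher. Of the 30 higher genes that reached 10 counts, 1 was also higher at R5, where 4.07% of all such genes were, and 3 were lower. These genes were grouped after their values were seen, so the counts carry no test.

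Single mutant replicate 1, the library closer to the double mutant, was next compared alone. With 1 library of the single mutant, genotype and library cannot be told apart. EdgeR called 0 of 34215 genes (0%), with a smallest adjusted p of 0.0721, and 3128 (9.14%) had an unadjusted p under 0.05, 1590 (4.65%) higher and 1538 (4.5%) lower in the double mutant. DESeq2 called 39 genes (0.13%), 13 (0.0432%) higher and 26 (0.0865%) lower, and limma with quality weights called 1. The lone library was assumed to vary like the wild-type and double mutant pairs. With wild-type replicate 1 or 2 left out, so that the spread came from the double mutant pair alone, edgeR called 306 genes (132 higher, 174 lower) or 336 genes (155 higher, 181 lower). The count of called genes thus depended on wild-type libraries that are not part of the contrast. Without either double mutant library it called 0.

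Glyma.06G192100 had the smallest p in this comparison. It had 213 and 242 counts in the double mutant, 299 and 274 in wild type, 796 in single mutant replicate 1 and 1 in single mutant replicate 2. In CPM the double mutant, at 10.3 and 11.6, was below wild type, at 14.6 and 13.4. The single mutant libraries lay far above and far below both. Its log2 fold change was -1.92 (SE 0.13) against replicate 1, with an adjusted p of 0.0721 by edgeR, 2.9e-08 by DESeq2 and 0.0491 by limma, where it was the 1 called gene, and 8.02 (SE 0.38) against replicate 2, with an edgeR adjusted p of 1.38e-05.

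Glyma.06G044400 was higher in the double mutant than in replicate 1. It had 457 and 461 counts in the double mutant, 134 and 424 in single mutant replicates 1 and 2, and 225 and 185 in wild type. In CPM replicate 2, at 20.1, was close to the double mutant, at 22 and 22.1, and replicate 1 was below wild type. The log2 fold change was 1.66 (SE 0.15) against replicate 1 and 0.53 (SE 0.13) against replicate 2, with edgeR adjusted p of 0.112 and 0.0126.

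Glyma.17G189000 had 0 counts in single mutant replicate 1 and was above 1 CPM in the 5 other V5 libraries, the 1 gene for which this held. It had 90 and 109 counts in the double mutant (4.34 and 5.22 CPM), 67 in single mutant replicate 2 (3.18 CPM) and 33 and 21 in wild type (1.62 and 1.02 CPM). Against a floor of 3 counts in replicate 1, its CPM was at least 33.1-fold higher in the double mutant, with an adjusted p of 0.112 by edgeR and 0.0261 by DESeq2. No gene was at 0 in either double mutant or either wild-type library in this way (0 genes each), and 82 were at 0 in single mutant replicate 2.

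Single mutant replicate 2 alone gave a different picture. EdgeR called 22196 of 35927 genes (61.8%), 11221 (31.2%) higher and 10975 (30.5%) lower in the double mutant. Before adjustment 23713 genes (66%) had a p under 0.05, 11998 (33.4%) higher and 11715 (32.6%) lower. DESeq2 called 16492 genes (43.8%), 8425 (22.4%) higher and 8067 (21.4%) lower. The balance of directions depends on the scaling, and so does each fold change against replicate 2, whose TMM factor was 1.342. In plain CPM 39.1% of the tested genes were higher in the double mutant than in replicate 2, and after TMM scaling 50.1% were. Replicate 1 of the single mutant differed from replicate 2 as widely as the double mutant did. In this comparison too, genotype and library cannot be told apart.

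Replicate 2 held no gene at the top levels of the other libraries. Its highest gene was at 4280 CPM, and no gene exceeded 10000 CPM in it (0 genes), while 6 genes exceeded that level in every other V5 library. The 20 most abundant V5 genes held 28.3% and 28.4% of all counts in the double mutant, 29.8% in replicate 1 and 2.58% in replicate 2. Their log2 fold changes ran from 1.4 to 6.63 against replicate 2 and from -0.84 to 0.54 against replicate 1. The genes were ranked by their mean over all 6 V5 libraries, of which 5 are alike, so the ranking itself favours genes that are low in replicate 2, and these values are a description.

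Glyma.03G163500, the most abundant, reached 70000 and 67300 CPM in the double mutant libraries, 62300 CPM in replicate 1 and 1020 CPM in replicate 2. Its log2 fold change was 0.02 (SE 0.44) against replicate 1 and 6.47 (SE 0.6) against replicate 2, with edgeR adjusted p of 0.993 and 0.000151. Glyma.10G037100, the next in rank, reached 14800 and 17000 CPM in the double mutant libraries, 14800 CPM in replicate 1 and 1980 CPM in replicate 2, beside 34900 and 52700 CPM in wild type. For both genes replicate 1 was within or close to the range of the double mutant. The log2 fold change of the second was -0.02 (SE 0.41) against replicate 1 and 3.4 (SE 0.49) against replicate 2, with edgeR adjusted p of 0.995 and 0.000981.

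Other genes were present in one library set and missing from the other. Against replicate 2, 460 genes (0.821% of all IDs) were above 1 CPM in both double mutant libraries and at 0.1 CPM or less in it, and 541 (0.965%) showed the opposite. Against replicate 1 there were 3 and 3 genes (0.00535% each), and between the 2 double mutant libraries 2 and 5. Against both single mutant libraries there was no gene of the first kind (0 of 56044) and 2 of the second (0.00357%), Glyma.07G176000 and Glyma.17G185600, which were chosen after their values were seen. Glyma.07G176000 had 0 counts in both double mutant libraries, 25 and 106 in the single mutant and 12 and 54 in wild type. Glyma.17G185600 had 0 and 2 counts in the double mutant, 21 and 32 in the single mutant and 1 and 0 in wild type. In the first gene wild type was with the single mutant, and in the second with the double mutant.

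The genes furthest apart between the double mutant and replicate 2 were at 0 on one side. Glyma.01G046300 had 956 and 920 counts in the double mutant, 1510 in replicate 1 and 0 in replicate 2, and Glyma.10G140200 had 761 and 719, 555 and 0. In CPM they were at least 317-fold and 250-fold higher in the double mutant than in replicate 2, against a floor of 3 counts in that library, with edgeR adjusted p of 2.9e-05 and 9.64e-05. Against replicate 1 their log2 fold changes were -0.8 (SE 0.24) and 0.3 (SE 0.35), with edgeR adjusted p of 0.457 and 0.838. Glyma.15G186100 had 18000 counts in replicate 2, 18 in replicate 1 and 0 in the double mutant and wild type, and Glyma.15G169100 had 7784, 5 and 0. Their CPM was at least 5900-fold and 2550-fold lower in the double mutant than in replicate 2, against a floor of 3 counts per library, with an edgeR adjusted p of 1.07e-05 for each.

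**Figure D4:**
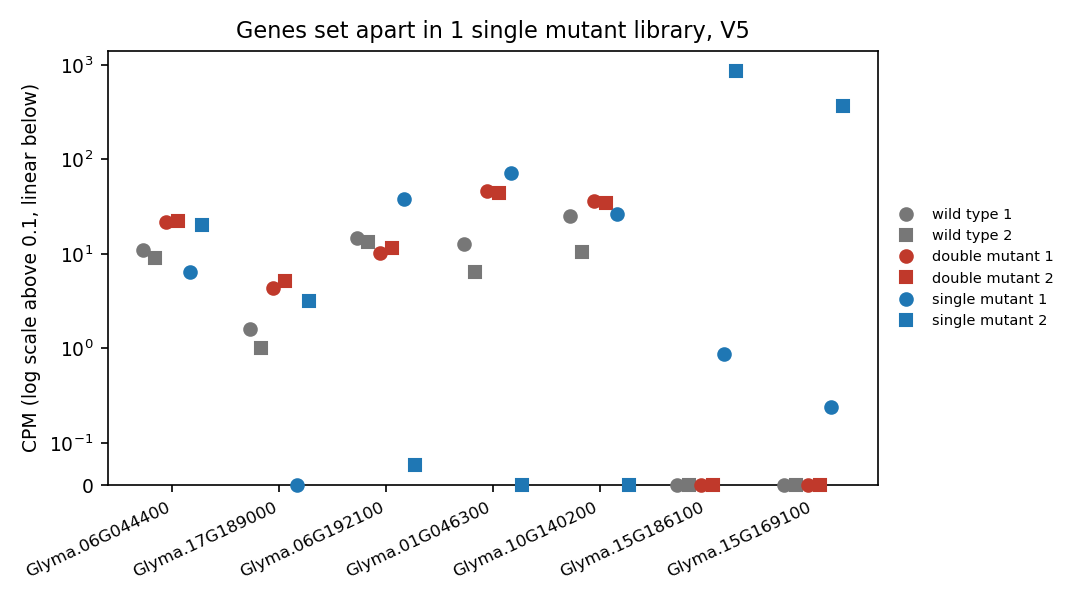
CPM (y axis, log scale above 0.1 and linear below) in each V5 library (grey wild type, red double mutant, blue single mutant; circles replicate 1, squares replicate 2) for genes named in the comparisons with 1 single mutant library. Glyma.17G189000 is at 0 in single mutant replicate 1, Glyma.01G046300 and Glyma.10G140200 are at 0 in replicate 2, and the 2 genes on the right reach 854 and 369 CPM in replicate 2 while the double mutant and wild type are at 0.

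Trace counts of such genes appeared in replicate 1. Among the 42 genes with 10 CPM or more in replicate 2 and 0 counts in both wild-type libraries, 23 had a count in replicate 1, and 8 and 9 in the double mutant libraries. The summed count of the 42 genes was 49925 in replicate 2, 136 in replicate 1 (0.272% of that) and 31 and 18 in the double mutant (0.0621% and 0.0361%). Of the 8 genes at 50 CPM or more, all 8 had a count in replicate 1, 2 had one in double mutant replicate 1 and 0 in replicate 2. The 18 counts of Glyma.15G186100 in replicate 1 are of this kind, and a low count in replicate 1 of a gene that is abundant in replicate 2 is therefore read with that share beside it. The source of these counts was not tested.

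The genes whose mutant libraries did not overlap were spread over the chromosomes. The share of genes with both double mutant libraries above both single mutant libraries was 17.6% to 21.3% over the 20 chromosomes, and the share below was 17% to 19.6%. Chromosome 10, which holds the edit that sets the mutants apart, was at 19% and 18.3%, beside 19.5% and 18.1% over all genes. The share with an unadjusted edgeR p under 0.05 against replicate 1 was 7.83% to 10.4%, with 8.87% on chromosome 10 and 7.83% on chromosome 20. Of the 90 genes that differed by a wide gap, 4 higher and 0 lower genes were among the 1807 tested genes of chromosome 10. Over all genes tested the shares were 0.149% higher and 0.119% lower. The 20 chromosomes each held 0 to 5 such genes in either direction.

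**Figure D5:**
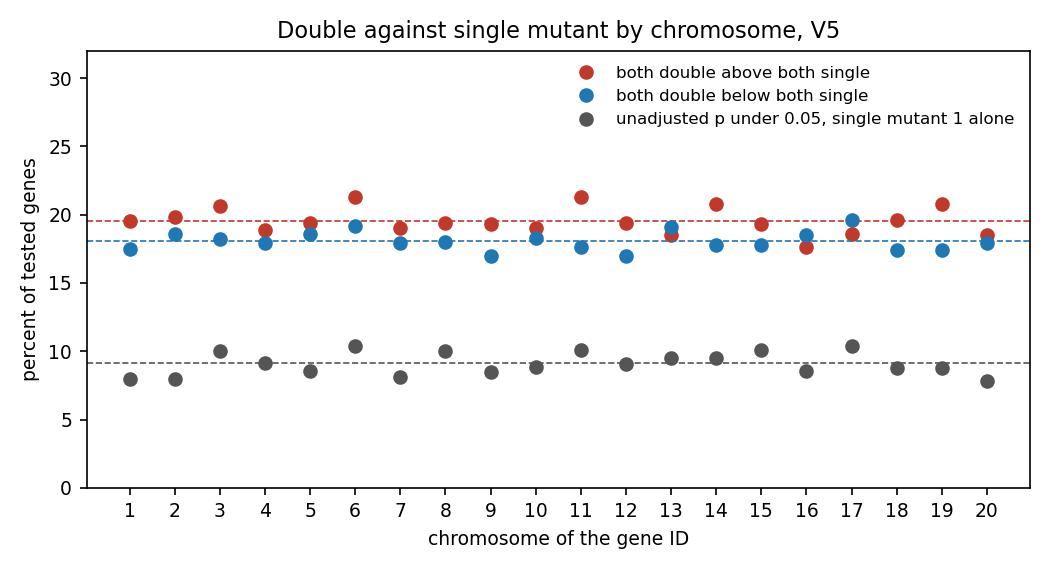
Percent of tested genes (y axis) by chromosome of the gene ID (x axis) with both double mutant libraries above (red) or below (blue) both single mutant libraries, and with an unadjusted edgeR p under 0.05 against single mutant replicate 1 (grey). Dashed lines give the share over all genes (19.5%, 18.1% and 9.14%), and chromosome 10 lies close to each.

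The difference between the mutants was last set beside the same difference in the libraries labelled R5, which are other libraries of the same genotypes. EdgeR called 0 of 38559 genes for a change of the difference between the stages (0%), and 1237 (3.21%) had an unadjusted p under 0.05, 367 (0.952%) with a difference more positive and 870 (2.26%) more negative at V5. DESeq2 called 5 genes (0.0104%) and limma 0. Without single mutant V5 replicate 1 edgeR called 10499 genes, and without replicate 2 it called 0. The genes described next, none called by edgeR, had the smallest p in each direction among those whose mean log2 CPM was at least 1 and whose mutant libraries did not overlap at V5, so other genes can have a smaller p. None of them was among the 5 genes that DESeq2 called. Glyma.10G274400 had 15 and 20 counts in the double mutant and 4 and 3 in the single mutant at V5, while its R5 levels were 40.4 and 38.9 CPM for the double and 56 and 44.2 CPM for the single mutant. The change of its log2 difference, V5 minus R5, was 2.69 (SE 0.43), with an edgeR adjusted p of 0.882. Glyma.16G150300 had 6 and 3 counts in the double mutant and 0 and 0 in the single mutant at V5, and its R5 levels overlapped, with 27.3 and 31.8 CPM for the double and 31.4 and 27.7 CPM for the single mutant.

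For the other sign of change, Glyma.10G079900 had 1 and 1 counts in the double mutant and 6 and 14 in the single mutant at V5, and was also lower in the double mutant at R5, at 9.26 and 7.71 CPM against 11.6 and 12.6 CPM. Glyma.08G357600 had V5 levels of 473 and 429 CPM for the double mutant, 542 and 1300 CPM for the single mutant and 418 and 426 CPM for wild type, with 0 to 3 counts in each mutant library at R5. The high value of 1300 CPM was that of single mutant replicate 2. The changes of their log2 differences were -2.58 (SE 0.62) and -4.63 (SE 1.2), with an edgeR adjusted p of 0.882 for each.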

How the data were processed

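Each library has its own table of the authors' making, which gives every gene ID a raw read count, as a whole number. Bowtie, HISAT2 and HTSeq were used, per the submitters' processing notes, which give their names alone. Not given in the sources used here are the build, the annotation, the use of strand and the handling of multiply mapped reads, so counts of close gene copies are uncertain. From the deposited counts, tests used R 4.3.3 and edgeR 4.0.16 (quasi-likelihood), with TMM scaling and a filter on low counts (filterByExpr, minimum count 10, minimum total count 15), with Benjamini-Hochberg adjustment over all genes tested and a threshold of 0.05. The comparison of the mutants was fitted on the 6 V5 libraries (3 residual degrees of freedom), each single mutant library alone on 5 libraries (2), and the change between stages on all 12 (6). DESeq2 1.42.0 and limma 3.58.1 were alternatives. The code was checked on simulated counts. V5 libraries held 20410270 to 21066989 counts. Floors cover counting error only.

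Named genes had a mean log2 CPM of 1 or more over the libraries fitted and no overlap at V5 between the double mutant and the single mutant libraries in that comparison (1 library where it was taken alone), at most 2 per direction and comparison, by smallest unadjusted p (for replicate 2 alone, called genes by largest fold change). The edited pair, 4 neighbours of the chromosome 10 gene and the 2 most abundant genes were added, as were 2 genes nearly or wholly without counts in the double mutant, picked once their values were known. The comparison, the gene IDs of the edited pair and the rules were chosen with earlier results of these data known. The 37 gene lists by product description could not be filled (0 filled).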

Additional observations from a re-analysis of the deposited data

Results flagged for a closer look

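Of the genes named in the report, 3 were singled out because both double mutant libraries lay on one side of both single mutant libraries at V5 and on the other side at R5, in CPM. Such a change of side was not particular to them. It also held for 447 of 6212 genes that were higher at V5 and 199 of 5957 that were lower, in the double mutant. These genes had 10 or more counts over the R5 mutant libraries, and levels were TMM-scaled CPM at V5 and plain CPM at R5. Over all genes tested at V5 with those counts, 10.7% were lower and 4.07% higher in both double mutant libraries at R5. The change of the log2 difference, V5 minus R5, was 2.69 for Glyma.10G274400, -4.63 for Glyma.08G357600 and -4 for the edited chromosome 10 gene Glyma.10G134400, and the test of this change did not pass for any of them (edgeR adjusted p 0.882 for each). Glyma.10G134400 had 6 and 2 counts in the double mutant and 1 and 0 in the single mutant at R5, and Glyma.08G357600 had 3 and 1 against 0 and 0, so the R5 side of both rests on few counts. Glyma.10G274400 had its few counts at V5, 15 and 20 against 4 and 3.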

How the results depend on the processing

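Calls between the mutants depended on the library and the tool. Over both single mutant libraries, leaving out 1 library gave 0 to 22196 called genes, the latter without single mutant replicate 1, and DESeq2 gave 176. Against replicate 1 alone the range was 0 to 336, with 39 in DESeq2 and 1 in limma, and against replicate 2 alone it was 17668 to 23640. For the change between stages it was 0 to 10499, with 5 in DESeq2. Glyma.20G085100 had log2 fold changes of -0.37 to 1.78 when 1 library was left out, reversed without single mutant replicate 2 and past the threshold without replicate 1. Glyma.10G134400 stayed negative, at -1.72 to -0.21, under each alternative, without passing. Genes above 2 CPM in the double mutant and at 0.1 CPM or less numbered 241 against replicate 2 and 1 against replicate 1, the opposite 302 and 0, and 0 against both. Wide gaps with a pseudocount of 1, chosen after seeing the data, held for 23 and 21 genes. The 10 and 100 most abundant genes held 21.6% and 37.7% of the counts in the double mutant. RLE size factors, no filter and edgeR's newer dispersion method left the count of called genes within 1.5 times in each comparison, as did fits of 4 or of 12 libraries over both single mutant libraries. The gene lists could not be filled and were not run.

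Whether the replicate numbers pair the libraries was not settled. The deviations of same-numbered libraries over 15057 genes correlated at 0.024 between the mutants, 0.142 between double mutant and wild type and 0.011 between single mutant and wild type. Since single mutant replicate 2 stood apart from all other V5 libraries, the values that involve the single mutant could hardly show a pairing. With the replicate number as a block edgeR called 0 genes between the mutants and 0 for the change between stages, and the value of Glyma.10G134400 was -1.05 (SE 0.5) and that of Glyma.20G085100 was 0.5 (SE 0.73). At this depth the edited pair had 10 to 67 counts in each V5 library, which limits their precision.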
